A study of Sus scrofa with 6 samples.

Results

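Porcine oocytes were examined for the mRNAs of the enzymes that place methyl groups on histone lysines and of those that remove them. The genes were chosen by symbol, as those whose name begins with KDM1 to KDM8, KMT2, KMT5, SETD followed by a digit or a B, EHMT1, EHMT2, EZH1, EZH2 or SUV39H, which gave 41 of the 29861 genes in the table. Of these, 16 were classed as demethylases (all KDM genes) and 25 as methyltransferases (all others). The classes follow the symbols and not a measured activity, so SETD3 and KMT2E, described below, count as methyltransferases. KDM8, which was assigned to no histone lysine here, likewise counts as a demethylase.

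In the study, oocytes of pig ovaries from an abattoir were matured in vitro with their cumulus cells, and RNA of pooled oocytes was sequenced in 3 groups of 2 samples each. The control group was matured at the usual temperature, the heat-stressed group spent the first 24 h at a raised temperature, and the NMN-supplemented group received the same heat together with nicotinamide mononucleotide (NMN), a precursor of the coenzyme NAD+, in the medium. The labels give the stage as GV (germinal vesicle, the immature stage with an intact nucleus) with a time of 24 h, whereas the study's methods describe collection at metaphase II, so the stage of the sequenced oocytes cannot be told apart from these sources. No group received NMN without heat. Nothing states that the samples of a group were separate collections of oocytes, so P-values measure the spread between these samples, which may be technical.

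Methylation of histone lysines is written and erased by separate enzyme families. Methylation of lysine H3K4 marks active promoters and enhancers and is set by the KMT2 and SETD1 enzymes within COMPASS complexes, whereas H3K9 methylation by the SUV39H, SETDB and EHMT enzymes and H3K27 methylation by EZH1 and EZH2 accompany silent chromatin. Most KDM enzymes remove such marks, either with FAD, as KDM1A and KDM1B do, or with iron and 2-oxoglutarate. A fully grown oocyte transcribes little, so its mRNA pool is largely a store laid down during growth that is translated or degraded during maturation. Both the writers and the erasers it stores are known to shape the chromatin of the egg and of the early embryo.

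Expression was given as FPKM, fragments per kilobase of transcript scaled to the number of mapped fragments, a scale per length on which genes can be compared with each other. Of the 41 genes, 40 were above 0 in all 6 samples, and SETD9 was listed at 0 in control 2 and heat-stressed 2. The mean over the 6 samples ranged from 0.0326 FPKM for KDM2B to 12.6 FPKM for SUV39H2, with a median of 0.596 FPKM. Methyltransferases had a median of 0.781 FPKM and demethylases of 0.295 FPKM. A mean of at least 1 FPKM was reached by 14 genes, of which 3 were demethylases (3 of 16) and 11 methyltransferases (11 of 25). These 14 were tested, a further 22 lay between 0.1 and 1 FPKM, and 5 lay below 0.1 FPKM (KDM2B, KDM4B, KDM4C, SETD9 and EZH1).

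**Figure D1:**
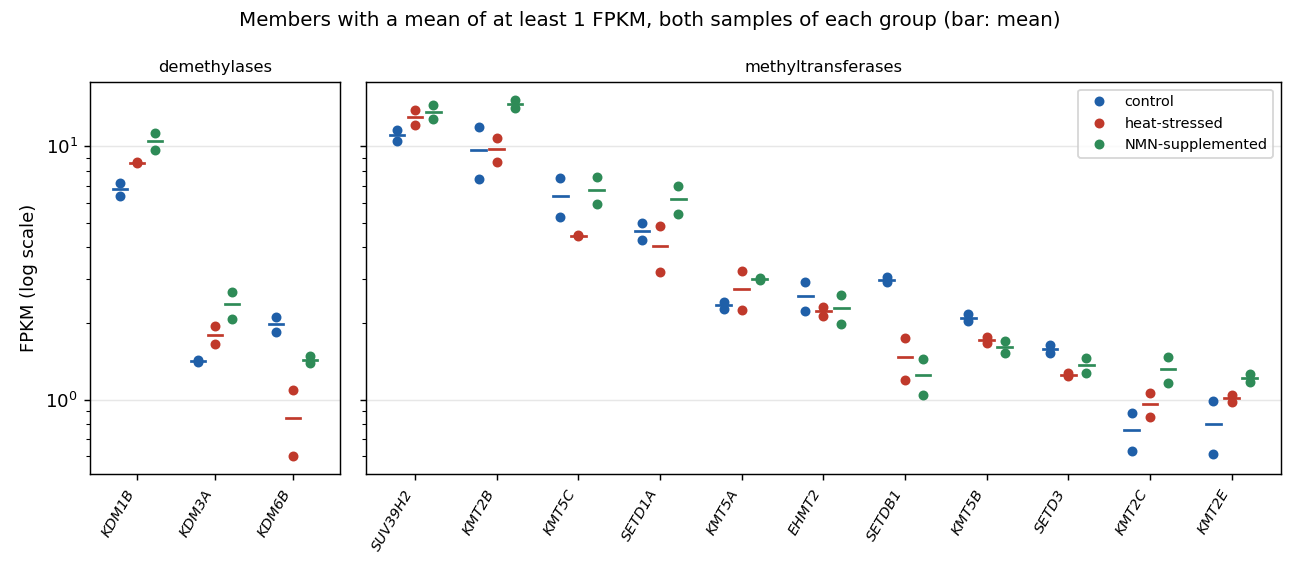
FPKM (log scale) of the 3 demethylases and 11 methyltransferases with a mean of at least 1 FPKM. Points are the 2 samples of each group and bars are their mean. SUV39H2, KMT2B and KDM1B had the highest means, and KDM6B and SETDB1 were highest in both control samples.

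Whole-series features that touch these values were as follows. The FPKM of all genes summed to 163929 to 290136 per sample, and mitochondrially encoded genes took 61.7% to 74.7% of that sum, with 66.4% and 61.7% (control), 62.4% and 71.6% (heat-stressed) and 74.2% and 74.7% (NMN-supplemented). Heat-stressed 1 stood apart in one gene, LOC100513953, which took 13.9% of its sum and was at 0 in the other samples. For the chosen genes and their partners, the calls that rest on this sample are therefore also given without it. Of 12 oocyte markers all were in the table, and they summed to 3425 and 3647 FPKM (control), 3341 and 3348 FPKM (heat-stressed) and 3156 and 2895 FPKM (NMN-supplemented). Of the 11 tested oocyte markers, limma called none higher at an unadjusted P under 0.05 in any comparison. Lower were 4 in heat-stressed versus control, 1 in NMN-supplemented versus heat-stressed and 6 in NMN-supplemented versus control samples. Of all tested genes, 10.1%, 6.45% and 15.7% were called lower in the same order. After adjustment 4 of the 11 passed in NMN-supplemented versus control samples, beside 21.5% of all tested genes (9.17% lower). Of 12 cumulus and granulosa cell markers 11 were in the table and summed to 13.9 to 17.1 FPKM in control, 8.08 to 10.7 in heat-stressed and 5.09 to 11.4 in NMN-supplemented samples. Without INHBA, which gave most of that sum, the range over all samples was 0.56 to 1.64 FPKM, and AMH and INHA were listed at 0 in every sample. The part of these differences in the results below was not tested.

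Among the H3K4 demethylases, KDM1B (LSD2), which erases H3K4 mono- and dimethylation and is known from mouse oocytes for clearing the way for maternal DNA methylation imprints, was by far the most abundant. KDM1B lies on the forward strand of chromosome 7 (chr7:13846283-13902912, Sscrofa11.1), with 22 merged exons in the RefSeq annotation. It was at 6.37 and 7.17 FPKM (control), 8.57 and 8.70 FPKM (heat-stressed) and 9.70 and 11.3 FPKM (NMN-supplemented). No 2 groups overlapped, with control lowest and NMN-supplemented highest. Its 3' end overlaps DEK on the opposite strand by 1351 exonic bases, and DEK was at 4.39 and 3.62, 7.0 and 5.76, and 8.53 and 6.15 FPKM in the same order of groups. Whether the library kept the strand was not stated, so reads of the overlap cannot be told apart between these genes.

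The other H3K4 demethylases were low. KDM1A (LSD1), the paralog that works with the CoREST co-repressor, was at 0.936 and 0.752 FPKM (control), 1.098 and 1.11 FPKM (heat-stressed) and 0.989 and 0.938 FPKM (NMN-supplemented). KDM1B therefore made up 87.2% to 92.4% of the FPKM of the pair in each of the 6 samples. The JmjC enzymes KDM5A, KDM5B and KDM5C had means of 0.510, 0.280 and 0.310 FPKM.

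Of the H3K4 methyltransferases, KMT2B (MLL2), the enzyme known in mouse for most H3K4 trimethylation of the oocyte, was the most abundant. Its values were 11.9 and 7.41 FPKM (control), 8.69 and 10.8 FPKM (heat-stressed) and 14.2 and 15.2 FPKM (NMN-supplemented). The control samples were far apart and overlapped the heat-stressed samples, whereas both NMN-supplemented samples lay above the other 4. SETD1A, the catalytic subunit of a COMPASS complex, was at 5.002 and 4.25, 3.19 and 4.87, and 5.40 and 6.99 FPKM in control, heat-stressed and NMN-supplemented samples. As with KMT2B, the NMN-supplemented samples were highest and the other groups overlapped. KMT2C, which methylates H3K4 at enhancers, was close to the minimum, at 0.887 and 0.625 FPKM (control), 0.852 and 1.06 FPKM (heat-stressed) and 1.17 and 1.48 FPKM (NMN-supplemented). Its control and heat-stressed samples overlapped and the NMN-supplemented samples lay above both.

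KDM3A, an eraser of H3K9 mono- and dimethylation on the reverse strand of chromosome 3 (chr3:58300109-58355000), was the main H3K9 demethylase. It was at 1.40 and 1.43 FPKM (control), 1.65 and 1.95 FPKM (heat-stressed) and 2.67 and 2.08 FPKM (NMN-supplemented), and the 3 groups did not overlap. Its paralog KDM3B had a mean of 0.596 FPKM, and KDM3A made up 71.5% to 79.6% of the pair in each sample.

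The H3K9 methyltransferases were led by SUV39H2, which sets H3K9 trimethylation at pericentric heterochromatin and had the highest mean of all 41 genes. SUV39H2 (chr10:46874606-46900058, reverse strand) was at 11.6 and 10.53 FPKM (control), 14.0 and 12.2 FPKM (heat-stressed) and 12.8 and 14.6 FPKM (NMN-supplemented). Control was lowest, and the heat-stressed and NMN-supplemented samples overlapped. SETDB1, which sets H3K9 trimethylation at retroelements and is known to be needed for meiosis of mouse oocytes, moved the other way. It was at 2.90 and 3.04 FPKM (control), 1.75 and 1.19 FPKM (heat-stressed) and 1.047 and 1.45 FPKM (NMN-supplemented). Both control samples lay above the other 4, which overlapped. EHMT2 (G9a), the H3K9 mono- and dimethylase, was at 2.91 and 2.24, 2.32 and 2.14, and 1.996 and 2.59 FPKM in the same order. All 3 groups overlapped for EHMT2. 

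KDM6B (JMJD3) erases H3K27 trimethylation and was the only H3K27 demethylase with a mean of at least 1 FPKM. It lies on the forward strand of chromosome 12 (chr12:53087072-53108949) with 26 merged exons. KDM6B was at 2.11 and 1.86 FPKM (control), 0.597 and 1.096 FPKM (heat-stressed) and 1.48 and 1.39 FPKM (NMN-supplemented). The groups did not overlap, with control highest, heat-stressed lowest and NMN-supplemented between them, and the heat-stressed samples were the farthest apart. The H3K27 methyltransferases were much lower, with EZH2 at a mean of 0.353 FPKM and EZH1 at 0.0474 FPKM.

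The H4K20 methyltransferases were all above the minimum. KMT5C (SUV420H2), which sets H4K20 trimethylation in heterochromatin and lies on chromosome 6 (chr6:59517058-59524551, forward strand), was at 7.51 and 5.26 FPKM (control), 4.42 and 4.46 FPKM (heat-stressed) and 7.60 and 5.91 FPKM (NMN-supplemented). Both heat-stressed samples were below the other 4, and control and NMN-supplemented samples overlapped. KMT5A, the H4K20 monomethylase, was at 2.44 and 2.29, 2.25 and 3.22, and 2.96 and 3.03 FPKM. KMT5B (SUV420H1), which adds the second methyl group, was at 2.17 and 2.04, 1.68 and 1.77, and 1.53 and 1.71 FPKM, with both control samples above the other 4. Outside the histone lysines named above, SETD3, which methylates a histidine of actin, was at 1.64 and 1.52, 1.23 and 1.28, and 1.46 and 1.28 FPKM, again highest in control. KMT2E, a SET-domain protein with no clear histone methylase activity, was at 0.987 and 0.612, 0.977 and 1.047, and 1.17 and 1.26 FPKM, with the NMN-supplemented samples highest.

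The sequences just upstream of KDM6B, SETDB1 and KDM1B are shown because these genes carry the differences from control described next. Each is the 250 bases before the annotated gene start, read 5' to 3' on the strand of the gene from the Sscrofa11.1 assembly of RefSeq, with CG dinucleotides in capitals. The start used by the oocyte was not measured. The positions are chr12:53086822-53087071 for KDM6B, chr4:98293239-98293488 (reverse strand) for SETDB1 and chr7:13846033-13846282 for KDM1B.
KDM6B: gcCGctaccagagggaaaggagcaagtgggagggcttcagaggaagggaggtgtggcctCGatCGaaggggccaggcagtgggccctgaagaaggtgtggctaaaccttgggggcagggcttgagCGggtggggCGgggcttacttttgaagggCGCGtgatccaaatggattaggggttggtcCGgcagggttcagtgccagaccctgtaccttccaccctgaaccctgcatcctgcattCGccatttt
SETDB1: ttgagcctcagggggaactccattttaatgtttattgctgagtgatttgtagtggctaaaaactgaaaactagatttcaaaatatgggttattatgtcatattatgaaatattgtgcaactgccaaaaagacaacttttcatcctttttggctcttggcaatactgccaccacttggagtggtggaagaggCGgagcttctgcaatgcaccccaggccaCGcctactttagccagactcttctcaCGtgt
KDM1B: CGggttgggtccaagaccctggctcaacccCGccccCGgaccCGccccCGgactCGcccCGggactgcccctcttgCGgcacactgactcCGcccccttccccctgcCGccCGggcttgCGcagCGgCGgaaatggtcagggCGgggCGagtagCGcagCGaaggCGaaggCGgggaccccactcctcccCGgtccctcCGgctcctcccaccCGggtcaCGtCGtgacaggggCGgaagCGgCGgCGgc
The SETDB1 stretch was 42.4% G or C with 3 CG dinucleotides, the KDM6B stretch 60.8% with 9 and the KDM1B stretch 76.0% with 29. Over all 41 genes the median was 66.8% G or C, beside 57.2% over the same window of 20632 protein-coding genes. The letters GAANNTTC or TTCNNGAA, a pair of inverted heat shock element units, were searched on both strands (each reads the same on both, and the 2 can overlap). They were found in 2 of 41 windows (4.9%), those of EHMT2 and KMT2E, and in 2204 of the 20632 windows (10.7%). None of the 3 stretches shown holds them.

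The mRNAs of an H3K27 eraser and an H3K9 writer had lower means after heat stress, but neither difference passed after adjustment. KDM6B fell from 1.98 ± 0.180 FPKM (mean ± SD, n = 2) in control to 0.846 ± 0.353 in heat-stressed oocytes, a mean 2.35-fold lower, and on the scale of log2(FPKM + 1) it fell by 0.71 (SE 0.166; limma, adjusted P = 0.127). SETDB1 fell from 2.97 ± 0.0963 to 1.47 ± 0.390 FPKM (n = 2), a mean 2.02-fold lower, or by 0.69 on the log2 scale (SE 0.165; limma, adjusted P = 0.129). In pooled oocytes, fewer oocytes holding a transcript and less of it in each cannot be told apart.

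These 2 were the only genes of the 14 tested that limma called at an unadjusted P under 0.05, both lower, where 22.8% of all 4713 tested genes were called in either direction, 12.7% as higher and 10.1% as lower. The count (14.3% of the 14) was thus near or below the background. After Benjamini-Hochberg adjustment over all tested genes neither passed 0.05, nor did any other of the 4713 genes. With 2 against 2 samples an exact permutation test cannot go below P = 0.333. Without heat-stressed 1 both genes were still called, and KDM6B fell by 0.51 and SETDB1 fell by 0.85 on the log2 scale. SETDB1 overlaps CERS2 on the opposite strand by 704 exonic bases, and CERS2 was at 46.6 and 50.0 FPKM (control), 48.4 and 53.5 FPKM (heat-stressed) and 63.7 and 58.9 FPKM (NMN-supplemented). The part of CERS2 reads in the SETDB1 values was not tested.

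The other 12 genes did not pass in this comparison. KDM1B was 0.31 above control on the log2 scale (SE 0.126; adjusted P = 0.221), and KMT5C had a log2 difference of -0.42 (SE 0.192; adjusted P = 0.257). Fold changes of the remaining 10 lay between -0.20 (SETD3) and 0.22 (SUV39H2). These values show 7 genes above and 7 below 0, with a median of -0.05, beside a median of 0.05 over all tested genes. Without heat-stressed 1 there were 8 above and 6 below, with a median of 0.10, and the median was 0.08 without control 1, -0.22 without control 2 and -0.10 without heat-stressed 2, so its sign rests on single samples.

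**Figure D2:**
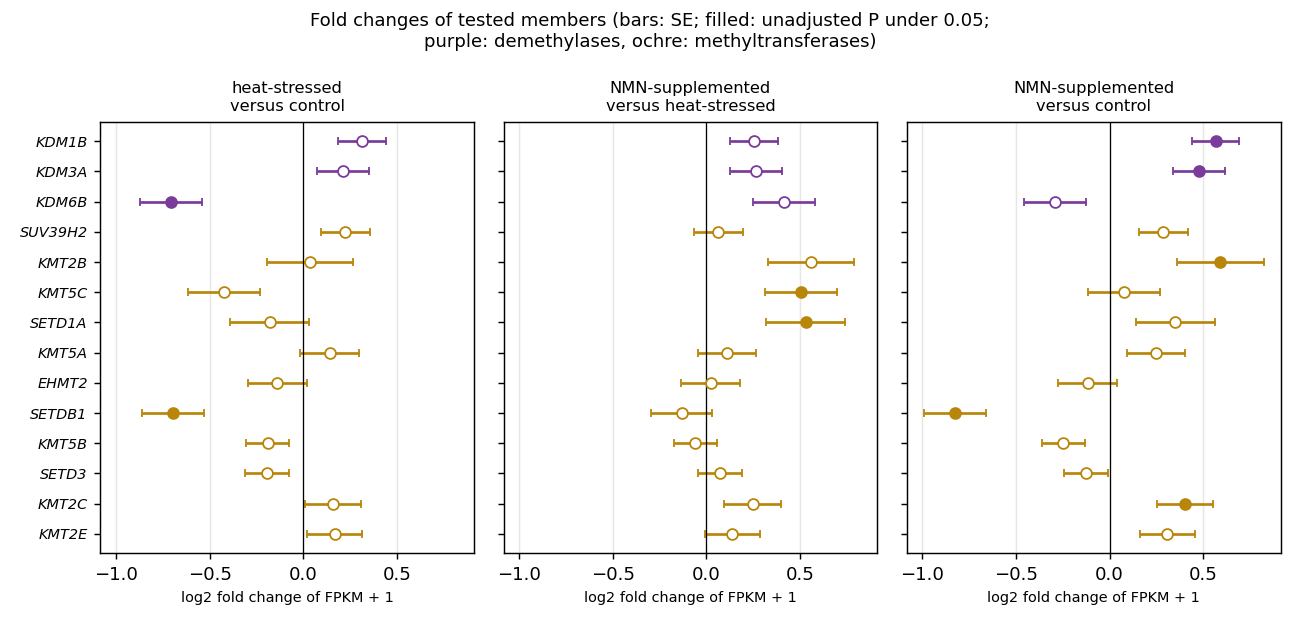
Log2 fold change of FPKM + 1 for the 14 tested genes in each of the 3 comparisons, with bars of 1 SE. Filled points had an unadjusted P under 0.05, purple marks demethylases and ochre methyltransferases. KDM6B and SETDB1 lie near -0.7 in heat-stressed versus control samples.

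An H4K20 writer and an H3K4 writer had higher means with NMN during heat than under heat alone, but neither difference passed after adjustment. KMT5C was at 4.44 ± 0.033 FPKM in heat-stressed and 6.75 ± 1.19 in NMN-supplemented samples (n = 2), 1.52-fold higher, a log2 difference of 0.50 (SE 0.192; limma, adjusted P = 0.359). SETD1A was at 4.03 ± 1.19 and 6.20 ± 1.12 FPKM (n = 2), 1.54-fold higher, a log2 difference of 0.53 (SE 0.210; limma, adjusted P = 0.360). KDM6B was 1.70-fold higher, at 1.44 ± 0.0649 FPKM after NMN, with a log2 difference of 0.41 that was not called at an unadjusted P under 0.05 (SE 0.166; limma, adjusted P = 0.360).

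KMT5C and SETD1A were the 2 of 14 called by limma at an unadjusted P under 0.05, beside 13.6% of all tested genes called in either direction, 7.15% called higher and 6.45% lower. The share of 14.3% was close to that of all tested genes in either direction. No gene of the 4713 passed after adjustment. The calls rest on single samples. Without heat-stressed 1 neither gene was called, with log2 differences of 0.50 for KMT5C and 0.28 for SETD1A. KMT5C was also lost without heat-stressed 2 (0.51) or NMN-supplemented 1 (0.34), and SETD1A without NMN-supplemented 2 (0.37) or without either control sample (0.53). The KDM6B difference was 0.61 and called without heat-stressed 2, and 0.22 and not called without heat-stressed 1. Over the 14 genes, 12 had a fold change above 0 and 2 below, with a median of 0.19, beside 0.08 over all tested genes. Without heat-stressed 2 there were 10 above and 4 below, with a median of 0.28 beside 0.07 over all tested genes. Without NMN-supplemented 2 there were also 10 above and 4 below, with a median of 0.14 beside 0.10. The counts stayed at 12 and 2 without any other single sample. The share of all tested genes above 0 was not counted.

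In NMN-supplemented samples an H3K9 writer was lower and an H3K4 eraser higher than in control samples. SETDB1 fell 2.38-fold, to 1.25 ± 0.284 FPKM (n = 2), by 0.83 on the log2 scale (SE 0.165; limma, adjusted P = 0.0295). KDM1B rose 1.55-fold, to 10.52 ± 1.16 FPKM from 6.77 ± 0.568 (n = 2), with a log2 difference of 0.57 (SE 0.126; limma, adjusted P = 0.0355). These were the 2 genes that passed after adjustment. Both lost that when either control or either NMN-supplemented sample was left out (adjusted P = 0.0766 to adjusted P = 0.166), and KDM1B also without either heat-stressed sample (adjusted P = 0.056 and adjusted P = 0.0557), whereas the unadjusted calls of both held without any single sample.

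KDM3A was 1.67-fold higher than in control, at 2.38 ± 0.411 against 1.42 ± 0.0206 FPKM (n = 2), with a log2 difference of 0.47 (SE 0.139; limma, adjusted P = 0.0622). For KMT2C, limma gave a log2 difference of 0.40 (SE 0.150; adjusted P = 0.102) and for KMT2B of 0.59 (SE 0.230; adjusted P = 0.113). Leaving out control 1, control 2 or NMN-supplemented 1 ended the call of KDM3A (log2 differences of 0.47, 0.48 and 0.35). The call of KMT2C ended without any one sample other than control 1, with differences of 0.30 to 0.50, and that of KMT2B ended without the same samples, with differences of 0.28 to 0.64. The control samples of KMT2B were far apart, and the difference was 0.28 and not called without control 2 and 0.90 and called without control 1. KDM6B did not differ past the threshold, with a log2 difference of -0.29 (SE 0.166; limma, adjusted P = 0.237).

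At an unadjusted P under 0.05, limma called 5 of the 14 genes (4 higher, 1 lower), beside 41.3% of all tested genes called in either direction, 25.6% higher and 15.7% lower. After adjustment 2 of 14 passed, beside 21.5% of all tested genes (12.4% higher, 9.17% lower). Both counts were below the background share. All 3 comparisons share samples with each other, so their values are given side by side and not as support for one another.

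The demethylases were compared with the methyltransferases by their median log2 fold changes, as a description. In heat-stressed versus control samples the 3 tested demethylases had a median of 0.21 and the 11 methyltransferases of -0.14, a difference of 0.35. The medians were 0.26 and 0.11 in NMN-supplemented versus heat-stressed samples and 0.47 and 0.25 in NMN-supplemented versus control samples, differences of 0.16 and 0.23. Single samples moved these differences by more than 1.5 times. The first was 0.21 without control 1 and 0.22 without heat-stressed 1, where the methyltransferase median was 0.06 and thus above 0. The second was 0.28 without NMN-supplemented 2, and the third was 0.09 without NMN-supplemented 1. With only 3 demethylases the median is that of KDM3A in all 3 comparisons. When all genes with a mean of at least 0.1 FPKM entered the fit (13 demethylases and 23 methyltransferases), the differences shrank to 0.08, -0.002 and -0.004, so the medians of the 2 classes were nearly equal once the low genes were counted.

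The summed FPKM showed the weight of a few genes. All 16 demethylases summed to 13.9 and 14.7 FPKM (control), 15.2 and 16.2 FPKM (heat-stressed) and 18.4 and 19.5 FPKM (NMN-supplemented). Without KDM1B the sums were 7.51 and 7.49, 6.68 and 7.47, and 8.74 and 8.12 FPKM, so the step between control and heat-stressed samples in the full sum was not seen in the other 15. The 25 methyltransferases summed to 56.2 and 45.03, 46.1 and 49.8, and 55.6 and 60.9 FPKM, with control and NMN-supplemented samples overlapping.

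By lysine, the sums of the erasers and of the writers followed different orders. The 5 H3K4 demethylases summed to 8.36 and 9.20 FPKM (control), 10.9 and 10.9 FPKM (heat-stressed) and 11.6 and 13.4 FPKM (NMN-supplemented), whereas the 6 H3K4 methyltransferases summed to 19.9 and 14.1, 14.0 and 17.7, and 22.2 and 25.3 FPKM. For H3K4 the erasers did not overlap between any groups, and the writers overlapped between control and heat-stressed samples. Without KDM1B the other 4 H3K4 demethylases summed to 1.99 and 2.02, 2.31 and 2.22, and 1.86 and 2.02 FPKM, with heat-stressed samples highest and NMN-supplemented samples overlapping control. KDM3A and KDM3B together gave 1.79 and 1.89, 2.31 and 2.46, and 3.47 and 2.85 FPKM, and the 6 H3K9 methyltransferases gave 18.8 and 17.3, 19.4 and 16.6, and 17.1 and 19.9 FPKM. KDM3A and KDM3B together thus separated the groups while the summed H3K9 writers overlapped in all of them, although SUV39H2 was lowest and SETDB1 highest in control. This eraser sum leaves out KDM7A and the KDM4 demethylases, which were classed under H3K9 and a further lysine. KDM4A, KDM4B and KDM4C summed to 0.290 and 0.383, 0.319 and 0.240, and 0.335 and 0.267 FPKM, with all groups overlapping. The H3K27 demethylases KDM6A and KDM6B summed to 2.61 and 2.21, 1.14 and 1.91, and 2.40 and 2.33 FPKM, and the H3K27 methyltransferases to no more than 0.528 FPKM in any sample.

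**Figure D3:**
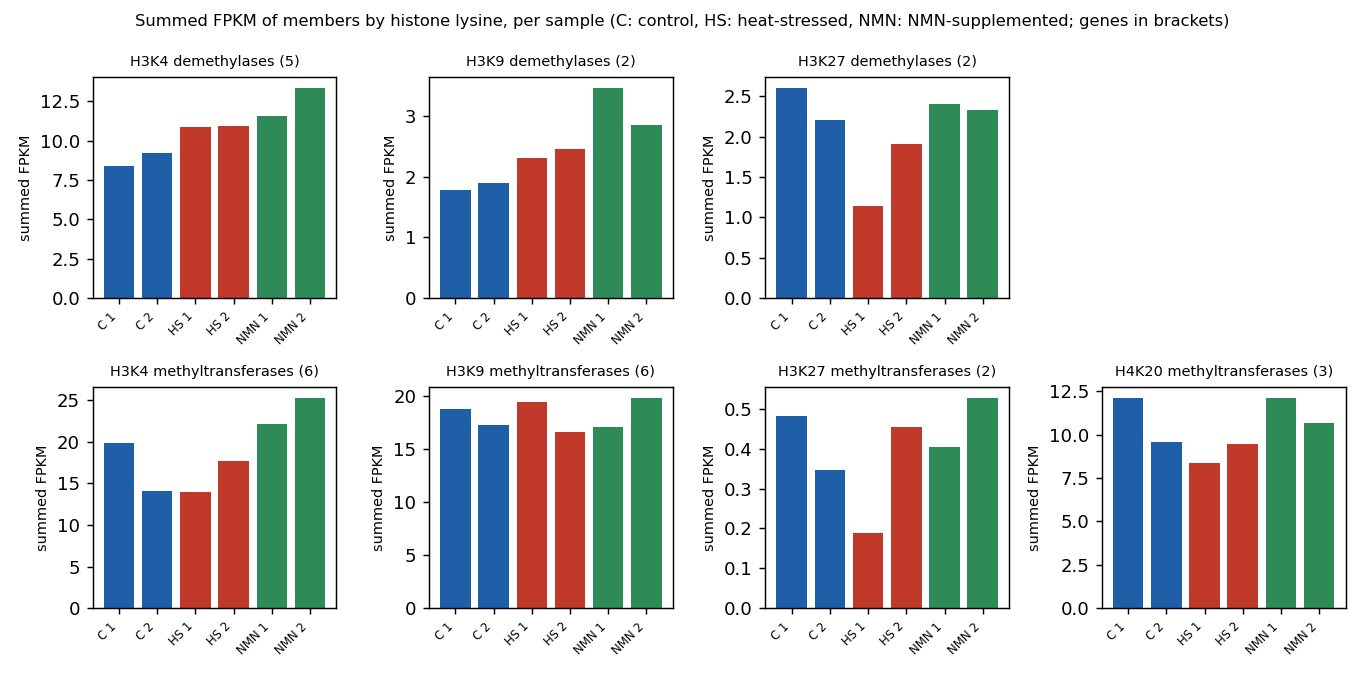
Summed FPKM per sample of the demethylases (upper row) and methyltransferases (lower row) of H3K4, H3K9, H3K27 and H4K20 (methyltransferases only), with the number of genes in brackets. KDM4A, KDM4B, KDM4C and KDM7A, each classed under a pair of lysines, are left out. Bars are single samples and each panel has its own scale from 0. The sum of the H3K4 demethylases rises from 8.36 FPKM in control 1 to 13.4 FPKM in NMN-supplemented 2.

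Shares within pairs of enzymes for the same lysine differ from single FPKM values in that any scaling of a sample cancels. KDM6A (UTX), the other H3K27 demethylase, made up 19.0% and 15.9% of the FPKM of KDM6A and KDM6B (control), 47.7% and 42.6% (heat-stressed) and 38.3% and 40.3% (NMN-supplemented). Control was far below both other groups, which came close to equal amounts of the 2 mRNAs under heat alone. SUV39H2 made up 79.9% and 77.6% of SUV39H2 and SETDB1 (control), 88.9% and 91.1% (heat-stressed) and 92.4% and 91.0% (NMN-supplemented). The share of EHMT2 in EHMT1 and EHMT2, which form one H3K9 methylase complex, was 82.8% and 77.1%, 77.6% and 73.3%, and 67.6% and 71.9%. For EHMT2 the control and heat-stressed samples overlapped and the NMN-supplemented samples were lowest. These shares were not tested.

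**Figure D4:**
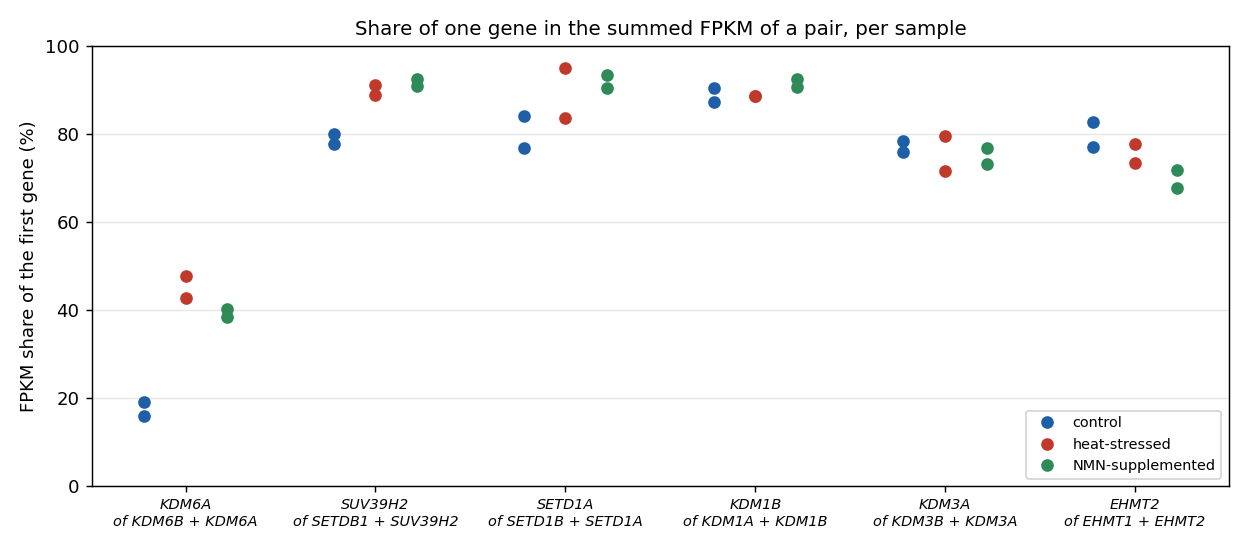
Share (%) of the first-named gene in the summed FPKM of a pair of enzymes, with 1 point per sample. The KDM6A share of KDM6A and KDM6B lies at 15.9% to 19.0% in control samples and at 38.3% to 47.7% in the other 4.

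The 27 genes below the minimum of 1 FPKM were examined with the lower minimum of 0.1 FPKM, which 22 of them passed. The highest means were those of KDM1A (0.970 FPKM), SETD6 (0.819 FPKM), which methylates the NF-kappaB subunit RELA, EHMT1 (0.781 FPKM), the partner of EHMT2, SETD1B (0.697 FPKM), a paralog of SETD1A, and KDM6A (0.677 FPKM). SETD6 was the least even, at 1.12 and 0.697 FPKM (control), 0.538 and 1.75 FPKM (heat-stressed) and 0.0553 and 0.744 FPKM (NMN-supplemented). EHMT1 was at 0.606 and 0.665, 0.669 and 0.779, and 0.958 and 1.01 FPKM, with no overlap between the groups. The EHMT1 gene lies on a scaffold not placed on a chromosome.

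At the lower minimum limma called 8 of 36 genes in heat-stressed versus control samples, beside 16% of all 11651 genes tested (7.02% higher, 8.99% lower). The demethylases KDM1B and KDM7A and the methyltransferase SETD4 were higher. The demethylases KDM6B and KDM8 and the methyltransferases SETDB1, SETD1B and SUV39H1 were lower. Their adjusted P-values lay between 0.198 (KDM6B) and 0.307 (KDM1B), and none of the 11651 genes passed after adjustment. Without heat-stressed 1 limma also called 8, of which 6 were among those named (not KDM1B and SETD4) and the other 2 were KDM6A and KMT5A, both higher, beside 13.7% of all genes tested. The low genes among those called with all samples are named here after their values were seen. SETD4 was at 0.132 and 0.0293 FPKM (control), 0.236 and 0.239 FPKM (heat-stressed) and 0.106 and 0.186 FPKM (NMN-supplemented), where control and NMN-supplemented samples overlapped. KDM7A, an eraser of H3K9 and H3K27 dimethylation, was at 0.144 and 0.154 FPKM (control), 0.304 and 0.303 FPKM (heat-stressed) and 0.337 and 0.332 FPKM (NMN-supplemented). KDM8 was at 0.406 and 0.665 FPKM in control and at 0.135 to 0.151 FPKM in the other 4 samples. SUV39H1, the paralog of SUV39H2, was at 0.721 and 0.767, 0.445 and 0.155, and 0.2195 and 0.123 FPKM, and SETD1B at 0.943 and 1.29, 0.619 and 0.259, and 0.564 and 0.506 FPKM. The control samples were highest in both.

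NMN-supplemented versus heat-stressed samples had 2 of 36 genes called, KDM6B and KMT5C, both higher (adjusted P = 0.499 for each), beside 9.96% of all genes tested (4.33% higher, 5.64% lower). Without heat-stressed 1 neither was called, nor was any other of the 36, beside 8.44% of all genes tested. NMN-supplemented versus control samples had 12 of 36 called, beside 27.8% (13.3% higher, 14.5% lower). Of these, 7 were among the 13 demethylases, with KDM1B, KDM3A, KDM3B, KDM6A and KDM7A higher and KDM5B and KDM8 lower. The other 5 were among the 23 methyltransferases, with EHMT1 and KMT2C higher and SETDB1, SETD1B and SUV39H1 lower. No gene of the 36 passed after adjustment, which 0.738% of all genes tested did (0.129% higher, 0.609% lower). The difference between the classes was not tested.

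The same 36 genes were also counted by whether the 2 samples of one group lay wholly above or below the 2 of the other. In heat-stressed versus control samples this held for 10 of 13 demethylases (7 higher, 3 lower) and 11 of 23 methyltransferases (5 higher, 6 lower), beside 47.1% of all genes (23.4% higher, 23.8% lower). In NMN-supplemented versus heat-stressed samples it held for 12 of 13 demethylases (8 higher, 4 lower) and 11 of 23 methyltransferases (8 higher, 3 lower), beside 44.8% (24% higher, 20.8% lower). In NMN-supplemented versus control samples the counts were 9 of 13 (6 higher, 3 lower) and 13 of 23 (8 higher, 5 lower), beside 60.6% (29.5% higher, 31.1% lower). The methyltransferases were near the background in each comparison, and the demethylases were above it by the most in NMN-supplemented versus heat-stressed samples. In that comparison limma called only 1 of the 13 demethylases, beside 9.96% of all genes. Some separations were small gaps between low values. KDM8 was at 0.1459 and 0.1508 FPKM in heat-stressed and 0.1353 and 0.1355 FPKM in NMN-supplemented samples. The difference between the classes was not tested here either, and groups of 2 separate often by the background given.

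**Figure D5:**
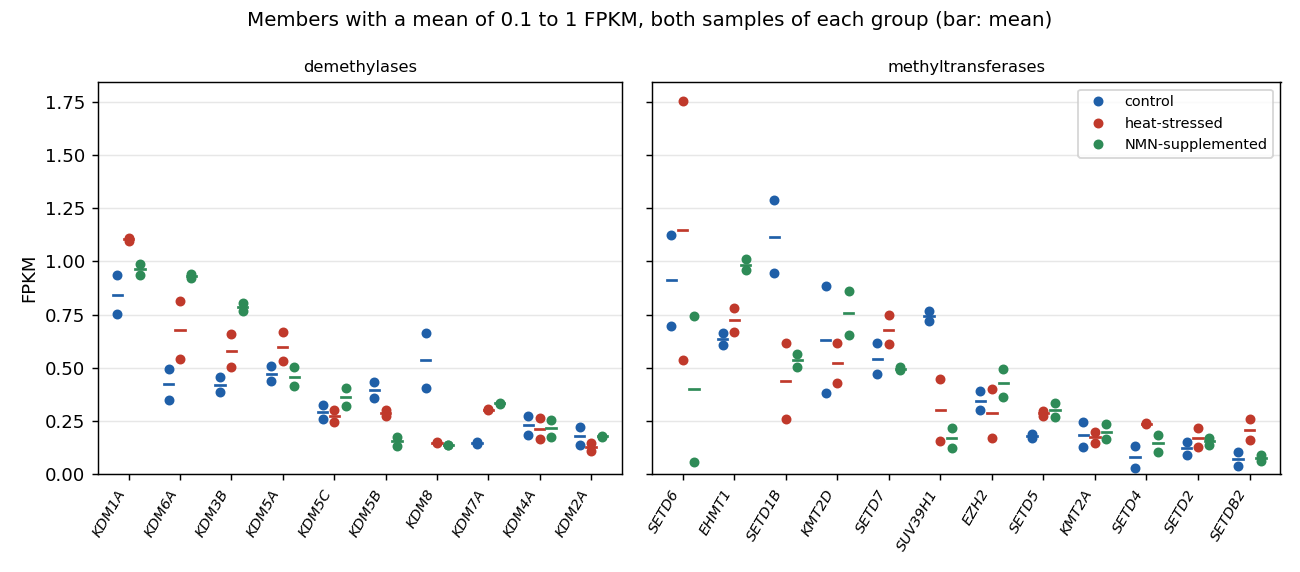
FPKM of the 10 demethylases and 12 methyltransferases with a mean of 0.1 to 1 FPKM. Points are the 2 samples of each group and bars are their mean. KDM8, SUV39H1 and SETD1B were highest in both control samples, and KDM6A and KDM3B in both NMN-supplemented samples.

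Partners of these enzymes were taken from lists of complex subunits and related enzymes, with changes given on the scale of log2(FPKM + 1). Of the COMPASS subunits, which hold the KMT2 and SETD1 enzymes, 9 of 12 were tested, and limma called 1 higher and 1 lower in heat-stressed versus control samples, 1 higher and 1 lower in NMN-supplemented versus heat-stressed samples, and 2 higher and 2 lower in NMN-supplemented versus control samples. These are 2, 2 and 4 of 9, beside 22.8%, 13.6% and 41.3% of all tested genes called in either direction. ASH2L, a core subunit that stimulates the methylase, was at 4.86 and 4.83 FPKM (control), 2.78 and 3.46 FPKM (heat-stressed) and 2.04 and 2.27 FPKM (NMN-supplemented). The 3 groups of ASH2L did not overlap, and it fell by 0.51 on the log2 scale under heat (SE 0.130; adjusted P = 0.137), by 0.38 with NMN against heat alone (SE 0.130; adjusted P = 0.350) and by 0.89 with NMN against control (SE 0.130; adjusted P = 0.0210). PSIP1, which tethers KMT2 complexes to chromatin, was at 16.6 and 16.4, 21.99 and 24.2, and 25.3 and 23.6 FPKM. PSIP1 rose by 0.46 under heat (adjusted P = 0.129) and was 0.54 above control with NMN (adjusted P = 0.0303). NCOA6, a subunit of the KMT2C and KMT2D complexes, was at 2.43 and 1.72, 2.12 and 3.20, and 3.88 and 4.65 FPKM. It rose by 0.54 with NMN against heat alone (adjusted P = 0.357). With NMN against control, limma also gave NCOA6 0.78 higher (adjusted P = 0.048) and WDR82 0.54 lower (adjusted P = 0.047). Without heat-stressed 1 the NCOA6 difference was 0.32 and not called, and CXXC1 and WDR82, named after their values were seen, were called lower under heat.

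Of the genes listed as partners of the KDM1 enzymes (LSD1 and LSD2) 4 of 10 were tested, which were RCOR1, RCOR2, HMG20B and GLYR1. The counts were 0 higher and 1 lower under heat, 1 higher and 0 lower with NMN against heat alone, and 2 higher and 1 lower with NMN against control, beside 22.8%, 13.6% and 41.3% of all tested genes called in either direction. HMG20B was at 3.82 and 4.37 FPKM (control), 2.71 and 2.43 FPKM (heat-stressed) and 2.61 and 2.76 FPKM (NMN-supplemented) and fell by 0.51 under heat (adjusted P = 0.127) and by 0.47 with NMN against control (adjusted P = 0.0476). RCOR2, a CoREST protein, was at 16.4 and 16.3, 16.2 and 14.8, and 22.6 and 20.6 FPKM and rose by 0.45 with NMN against heat alone (adjusted P = 0.268). The NMN-supplemented samples of RCOR2 were above the other 4. RCOR1, its paralog, was at 1.47 and 1.09, 1.61 and 2.1, and 2.27 and 2.58 FPKM and rose by 0.59 with NMN against control (adjusted P = 0.0481). GLYR1 was not called in any comparison, with log2 differences of -0.004 under heat, 0.045 with NMN against heat alone and 0.041 with NMN against control.

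PRC2 subunits, which work with EZH1 and EZH2, had 4 of 9 tested, with 0 higher and 1 lower under heat, none called with NMN against heat alone, and 2 higher and 1 lower with NMN against control, beside the 22.8%, 13.6% and 41.3% of all tested genes. PHF19 was at 10.4 and 10.4, 7.71 and 7.92, and 6.28 and 7.02 FPKM and fell by 0.38 under heat (adjusted P = 0.157) and by 0.58 with NMN against control (adjusted P = 0.0273), where the call under heat was lost without heat-stressed 1 (-0.36). RBBP4, a histone chaperone shared with other complexes, was at 25.2 and 23.9, 33.0 and 28.4, and 36.5 and 32.3 FPKM and rose by 0.47 with NMN against control (adjusted P = 0.0547). The core subunits EED and SUZ12, named after their values were seen, were at no more than 0.073 and 0.057 FPKM in any sample.

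Of the partners and readers of H3K9 methylation 8 of 10 were tested, with 2 higher and 0 lower under heat. With NMN, 1 was higher and 0 lower against heat alone, and 4 were higher and 0 lower against control. Of all tested genes 22.8%, 13.6% and 41.3% were called in either direction, and 12.7%, 7.15% and 25.6% as higher. UHRF1, which binds methylated H3K9 and hemimethylated DNA, was at 5.70 and 5.34 FPKM (control), 6.75 and 6.20 FPKM (heat-stressed) and 8.50 and 9.02 FPKM (NMN-supplemented). UHRF1 rose by 0.39 with NMN against heat alone (adjusted P = 0.311) and by 0.58 against control (adjusted P = 0.0278). CBX3, a heterochromatin protein that binds methylated H3K9, was at 4.203 and 3.66, 6.35 and 4.99, and 6.51 and 5.42 FPKM and rose by 0.43 under heat (adjusted P = 0.201) and by 0.50 with NMN against control (adjusted P = 0.0736). Without heat-stressed 1 the CBX3 difference under heat was 0.28 and not called. ZNF644, a zinc finger partner of EHMT2, was at 1.56 and 1.06, 1.89 and 2.46, and 1.74 and 2.16 FPKM and rose by 0.46 under heat (adjusted P = 0.207). Of the other lists, the methyltransferases outside the symbols above had 2 tested, NSD3 and PRDM2, neither called under heat or with NMN against heat alone and both higher with NMN against control (adjusted P = 0.0613 and adjusted P = 0.0923). The demethylases outside them had 1 tested, RIOX1, which was not called in any comparison, and the enzymes of methyl donor synthesis had 1, MAT2B, at 1.5 and 1.32, 2.58 and 2.52, and 2.13 and 1.97 FPKM. MAT2B, a regulatory subunit of methionine adenosyltransferase, rose by 0.56 under heat (adjusted P = 0.118) and by 0.34 with NMN against control (adjusted P = 0.0833). Apart from NCOA6, PHF19 and CBX3 as given above, partner calls named with values held without heat-stressed 1 in the comparisons that hold this sample. It is not part of NMN-supplemented versus control, where leaving it out keeps every log2 difference and alters only the shared spread. The partner calls in that comparison were not examined without a control or an NMN-supplemented sample.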

How the data were processed

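The labels assign 2 sequenced RNA samples of porcine oocytes to each of the 3 groups. According to the methods, reads were trimmed with cutadapt and aligned to susScr11 (Sscrofa11.1) with tophat2, and the submitters' notes name Cufflinks 2.2.1, Cuffnorm and Cuffdiff. The authors deposited FPKM values per gene and sample, scaled per length and per mapped fragment. Their sums differed between samples, whereas bringing the samples to the same median needed factors of only 0.981 to 1.016. Heat-stressed 1 had the largest sum and a factor of 1.006. Whether a gene that takes a large share of a sample lowers the others was not tested. The authors' lists of differentially expressed genes, which hold their fold changes and P-values, were not used. Read counts were not used here, so depth per sample is unknown.

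Genes with a mean of at least 1 FPKM over the 6 samples (4713 of 29861) were tested on log2(FPKM + 1), which understates changes of low genes. One two-sided limma model (version 3.58.1, R version 4.3.3) held a mean per group and used moderated variances with a trend on expression, with Benjamini-Hochberg adjustment over all tested genes. The code was tested on simulated data. The genes, lists and tests were chosen with earlier results of these data known. Every chosen gene with a mean of at least 1 FPKM was described, and statistics were given for those under an unadjusted P of 0.05 and for KDM6B. Beyond this rule, they were given for KDM1B and KMT5C in heat-stressed versus control samples. The 5 highest of the lower genes were named, and at most 2 partners per list and comparison were named by the smallest P. NCOA6 and WDR82 in NMN-supplemented versus control samples were named beyond that limit. Alternatives were another pseudocount, minimum, scaling, a replicate block, a fit of the compared groups alone, no variance trend and leaving out each sample. All 41 genes were matched to the RefSeq annotation of Sscrofa11.1. Protein sequences were not used here. Python 3.11.15 with pandas 2.3.3 and matplotlib 3.10.9 was used for tables and figures.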

Additional observations from a re-analysis of the deposited data

How the results depend on the processing

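In heat-stressed versus control samples, KDM6B and SETDB1 were called in each of 16 alternatives, as was SETDB1 in NMN-supplemented versus control samples. The number of genes called, 2 in heat-stressed versus control samples, was 8 with a minimum of 0.1 FPKM, 8 when heat-stressed 1 was also left out, 10 with no minimum, 0 with a minimum of 5 FPKM and 0 after adjustment. The 2 in NMN-supplemented versus heat-stressed samples became 1 with no minimum, 1 when scaled to the same median FPKM, 1 when scaled to the same sum of genes neither mitochondrially encoded nor LOC100513953 (chosen after seeing the data), 0 with a minimum of 0.1 FPKM and heat-stressed 1 left out (likewise), 0 after adjustment and 0 to 2 when 1 sample was left out. The 5 in NMN-supplemented versus control samples became 12 with a minimum of 0.1 FPKM, 13 when heat-stressed 1 was also left out, 13 with no minimum, 2 with a minimum of 5 FPKM, 1 with the same sum of genes not mitochondrially encoded, 3 with the sum also without LOC100513953, 3 in a fit of the compared groups alone, 2 after adjustment and 2 to 5 when 1 sample was left out. More or fewer genes were tested under another minimum, and for the other settings the cause was not tested. KDM1B was called in 16 of 17 alternatives in this comparison, KDM3A in 12 of 16, KMT2C in 6 of 16 and KMT2B in 5 of 17, and in NMN-supplemented versus heat-stressed samples KMT5C in 13 of 17 and SETD1A in 6 of 16. After adjustment SETDB1 passed in 8 of 16 alternatives (adjusted P = 0.0295 to 0.161) and KDM1B in 4 of 17 (0.0244 to 0.519).

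The median of demethylases minus methyltransferases in heat-stressed versus control samples moved from 0.35 to 0.084 with a minimum of 0.1 FPKM and to -0.002 with no minimum, that in NMN-supplemented versus heat-stressed samples from 0.16 to -0.248 with a minimum of 5 FPKM, and that in NMN-supplemented versus control samples from 0.23 to -0.004 and -0.065 with a minimum of 0.1 FPKM and with none. Samples with the same number did not deviate together (correlations of -0.032, 0.008 and -0.0139). With the number as a replicate block, 3, 2 and 3 genes were called in the order of the comparisons above. Scaling to the same sum of genes not mitochondrially encoded moved the median of all tested genes to -0.22 in heat-stressed versus control samples and to 0.35 in NMN-supplemented versus heat-stressed samples, because heat-stressed 1 was then multiplied by 0.628. Without counts the precision that depth gives to genes below 1 FPKM is unknown.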
